A study of Mus musculus with 11 samples.

Results

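The 60 genes described here encode ligands and receptors of axon guidance: 14 Eph receptors, 8 ephrins, 20 semaphorins, 9 plexins, 3 Robo receptors, 3 Slit ligands, and netrin 1 with its receptors Dcc and Unc5c. The genes were taken by name, 60 of the 22367 protein-coding genes of the mm9 annotation (GENCODE vM1), by a rule that uses no measured value. For each gene, every ChIP-seq peak whose midpoint lay in the gene body or within 20 kb of either end was counted, and this stretch is called the window. The windows covered 12.7 Mb after merging. The windows of Efna1 and Efna3 and those of Efna3 and Efna4 overlapped on chromosome 3, and a peak there was counted for each gene.

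The peaks mark genomic binding of ZIC2, OTX2, SOX2, POU5F1 and POU3F1, 5 transcription factors (TFs) of epiblast stem cells (EpiSCs), which are pluripotent cells derived from the postimplantation mouse embryo. The EpiSCs came from the 129/Sv strain and were kept without feeder cells, with Fgf2 at 10 ng/ml and activin at 20 ng/ml. A second culture, called activin-free here, went without activin for 18 h before harvest. In both cultures each TF was expressed from a transiently transfected plasmid with the BLRP sequence, biotinylated in the cells by the ligase BirA, and pulled down with streptavidin, so the peaks reflect a tagged TF present in addition to the endogenous one. There was 1 library for each TF in each culture, 10 peak lists in all, and an input control that served as reference for peak calling. No value therefore has a replicate error, intervals cover counting error only, and a difference between the cultures is a difference between 2 libraries. How deeply the libraries were sequenced is not known from the lists, which held 62387 to 126751 peaks on chromosomes 1 to 19, X and Y.

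Axon guidance proteins steer growing axons by attraction or repulsion and are also used in the early embryo for boundary formation and cell migration. Ephrins are bound to the cell surface and signal through Eph receptor tyrosine kinases on the adjacent cell, semaphorins act through plexins, Slit proteins through Robo receptors, and netrins through Dcc and Unc5 proteins. ZIC2 is a zinc finger protein, OTX2 a homeodomain protein of the anterior neural plate, SOX2 an HMG box protein, and POU5F1 and POU3F1 are POU proteins that recognize an octamer-like sequence.

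The windows contained 892 ZIC2, 478 OTX2, 342 SOX2, 497 POU5F1 and 969 POU3F1 peaks in EpiSCs. The corresponding numbers in activin-free cells were 853, 497, 434, 921 and 851. A peak in a window can lie nearer to a gene outside the set. In EpiSCs the nearest TSS belonged to a gene of the set for 71.9% of ZIC2 peaks (68.8 to 74.7%). The share was 72.6% (68.4 to 76.4%) for OTX2 and 93.7% (92 to 95.1%) for POU3F1. ZIC2 and POU3F1, which had similar totals, were found on different genes of the same families. The 2 sequences below illustrate this. They are from the plus strand of mm9, extend 100 bases to either side of an intronic peak midpoint, and were chosen after the values were seen because Slit1 and Slit2 stand at the opposite ends of the ZIC2 and POU3F1 range. Each belongs to the highest-scoring intronic peak narrower than 1 kb that was present in both cultures and had the motif of its TF near the midpoint. Capitals mark the motif, CAGCAGG for ZIC2 and ATGCAAAT (here on the opposite strand) for POU3F1.
ZIC2 peak in Slit1, chr19:41789227-41789427: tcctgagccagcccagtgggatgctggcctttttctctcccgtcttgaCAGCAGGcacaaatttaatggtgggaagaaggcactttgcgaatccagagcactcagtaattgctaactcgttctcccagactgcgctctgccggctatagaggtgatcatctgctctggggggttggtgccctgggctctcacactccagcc
POU3F1 peak in Slit2, chr5:48651632-48651832: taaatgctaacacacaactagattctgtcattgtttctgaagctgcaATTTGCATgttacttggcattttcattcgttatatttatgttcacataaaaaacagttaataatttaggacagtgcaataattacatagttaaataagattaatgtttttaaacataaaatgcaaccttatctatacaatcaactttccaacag
The Slit1 sequence lies 28.8 kb downstream of the transcription start site (TSS) and is 55.7% G or C, and no other TF had a peak there. The Slit2 sequence lies 277 kb downstream of the TSS, is 27.4% G or C, and was also covered by a POU5F1 peak in activin-free cells. The score of a peak is -10 log10 of its p-value. The Slit1 peak scored 138 in EpiSCs and 167 in activin-free cells, and the Slit2 peak scored 103 and 412.

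The next 6 sequences show the strongest sites, namely the highest-scoring EpiSC peak of each TF that was present in both cultures and for which the TSS of the gene named was the nearest of all protein-coding genes, and the site at which ZIC2 and OTX2 overlapped in both cultures with the highest minimum score. Strand, length and build are as above. Capitals mark the SOX2 motif, ACAA followed by A or T and then A or G. The other sequences held no match to the motif searched in them on either strand, which was GGATTA for OTX2 and for the shared site, ATGCAAAT or ATGCATAT for the POU proteins, and CAGCAGG for ZIC2.
ZIC2 at the Sema4c promoter, chr1:36614439-36614639: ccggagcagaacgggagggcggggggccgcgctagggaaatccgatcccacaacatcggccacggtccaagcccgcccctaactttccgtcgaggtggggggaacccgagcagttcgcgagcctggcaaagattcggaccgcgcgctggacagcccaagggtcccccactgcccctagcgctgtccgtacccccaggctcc
OTX2 in a Slit3 intron, chr11:35125124-35125324: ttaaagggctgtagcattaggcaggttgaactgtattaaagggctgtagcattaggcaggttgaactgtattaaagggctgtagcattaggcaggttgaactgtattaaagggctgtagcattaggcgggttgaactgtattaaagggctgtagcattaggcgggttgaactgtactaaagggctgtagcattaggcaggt
SOX2 in a Robo1 intron, chr16:72693676-72693876: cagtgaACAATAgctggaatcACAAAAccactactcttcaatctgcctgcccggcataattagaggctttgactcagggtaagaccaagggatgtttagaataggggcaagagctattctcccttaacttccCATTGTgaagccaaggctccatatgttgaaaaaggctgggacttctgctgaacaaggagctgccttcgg
POU5F1 in a Sema3d intron, chr5:12540137-12540337: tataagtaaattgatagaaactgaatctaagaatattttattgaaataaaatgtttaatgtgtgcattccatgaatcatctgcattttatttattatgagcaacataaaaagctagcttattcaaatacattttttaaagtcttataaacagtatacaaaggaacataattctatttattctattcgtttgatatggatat
POU3F1 in an Epha5 intron, chr5:84595972-84596172: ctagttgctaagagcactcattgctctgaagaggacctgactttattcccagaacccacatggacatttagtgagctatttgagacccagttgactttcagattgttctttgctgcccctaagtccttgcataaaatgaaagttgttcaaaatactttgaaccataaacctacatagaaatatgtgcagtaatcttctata
ZIC2 and OTX2 downstream of Efnb2, chr8:8610374-8610574: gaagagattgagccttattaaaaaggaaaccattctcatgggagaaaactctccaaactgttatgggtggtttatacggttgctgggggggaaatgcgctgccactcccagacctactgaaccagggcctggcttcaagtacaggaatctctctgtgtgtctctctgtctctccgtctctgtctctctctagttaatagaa
The Sema4c site was 1 of 12 EpiSC ZIC2 peaks tied at a score of 3100 in these windows, and position broke the tie. The peak spanned 5377 bp, and the sequence shown is 69.2% G or C. The Slit3 site is a tandem repeat, in which 98.2% of the bases equal the base 35 positions further on. It scored 1011 in EpiSCs and 1743 in activin-free cells for OTX2 and had no peak of another TF. The Robo1 site contains 3 SOX2 motifs and scored 1003 and 1127. The Sema3d and Epha5 sites were covered by peaks of both POU proteins in both cultures, and the Epha5 peak of POU3F1 was 6141 bp wide. The Efnb2 site, 50.8 kb downstream of the TSS, scored 1589 for ZIC2 and 367 for OTX2 in EpiSCs. Midpoints of wide peaks need not lie on the bound sequence.

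Over all EpiSC peaks of these windows, motifs were counted in stretches of the same length as those shown, around the midpoints and, as flanks, 1 kb to either side. GGATTA was found in 23.6% of OTX2 peaks (95% Wilson interval 20.1 to 27.6%, n = 478), 23.6% of all OTX2 peaks and 7.85% of flanking windows. CAGCAGG was found in 19.3% of ZIC2 peaks (16.8 to 22%), 19.1% of all ZIC2 peaks and 8.07% of flanks. The SOX2 motif, which is short and common, was present in 83.9% of SOX2 peaks (79.7 to 87.4%), 85.9% of all SOX2 peaks and 53.4% of flanks. The octamers were found in 13.7% of POU5F1 peaks (10.9 to 17%), 18.6% of all POU5F1 peaks and 3.22% of flanks. For POU3F1 the values were 9.7% (7.99 to 11.7%), 8.84% and 4.08%. The POU5F1 interval did not include the value of the whole list. In activin-free cells this held for SOX2, at 79.5% (75.4 to 83%) against 85.1%, and for POU3F1, at 7.17% (5.62 to 9.1%) against 9.36%, and not for POU5F1, at 12.1% (10.1 to 14.3%) against 13.6%. On a regular grid over the genome, 8% of stretches of this length held GGATTA, 4.02% CAGCAGG, 52.8% the SOX2 motif and 3.04% an octamer.

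ZIC2 was at the promoters of nearly all axon guidance genes. A promoter peak was counted when the midpoint lay within 1 kb of the TSS of any protein-coding transcript of the gene. By this rule 55 of 60 genes had a ZIC2 promoter peak in EpiSCs, against 66.6% of all protein-coding genes. Again 55 of 60 had one in activin-free cells, against 65.7%. When a TSS covered by the peak itself was required instead of a nearby midpoint, an alternative chosen after seeing the data, 58 of 60 had a ZIC2 peak in either culture, against 65.2% and 63.5% of all genes. The exceptions were Epha6 and Epha8. The nearest ZIC2 peak to a TSS of Epha6 was 126 kb away in EpiSCs and 168 kb away in activin-free cells. Epha8 had a ZIC2 peak 0.257 kb from a TSS that did not reach it. For Sema3f, which encodes a secreted semaphorin, the promoter lay under a ZIC2 peak of 6662 bp whose midpoint was 2.73 kb from the TSS. Efnb3, Sema6c and Epha7 similarly had wide ZIC2 peaks over their TSS in EpiSCs, with midpoints at 1.13, 1.73 and 1.07 kb. The ZIC2 promoter peaks had a median width of 1897 bp and a median score of 886 in EpiSCs, and 49.3% of them were wider than 2000 bp, compared with 16.1% of all ZIC2 peaks in the windows.

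The other TFs occupied few of these promoters, and the shares of OTX2, SOX2 and POU5F1 were near those of all genes. OTX2 had a promoter peak in 17 of the 60 genes (28.3%) in EpiSCs, against 25.7% of all genes. In activin-free cells there were 10 (16.7%), against 20.6%. SOX2 had a promoter peak in 4 genes (6.67%, all genes 6.63%) in EpiSCs and in 6 (10%, all genes 11.3%) in activin-free cells. POU5F1 had one in 2 genes (3.33%, all genes 3.47%) and then in 4 (6.67%, all genes 6.8%). POU3F1 had one in 2 genes in EpiSCs, Sema3a and Sema6d, against 4.35% of all genes. In activin-free cells POU3F1 had none, against 5.06% of all genes. That is 0 of 851 POU3F1 peaks in these windows, which allows a share of peaks of up to 0.353% (3 counts of the total). In the windows of all genes, 2.52% of activin-free POU3F1 peaks were at promoters. Per Mb of promoter the interval was 0 to 18.9 for the 60 genes, and the value of all genes, 19.9, lay just above it. The distance from a TSS of the gene to the nearest peak had a median of 0.314 kb for ZIC2 and 75.2 kb for POU3F1 in EpiSCs, with OTX2 (3.42 kb), SOX2 (20.8 kb) and POU5F1 (25.9 kb) in between. In the activin-free lists the medians ran from ZIC2 (0.316 kb) over OTX2 (5.54 kb), POU5F1 (12.2 kb) and SOX2 (17.2 kb) to POU3F1 (63.4 kb). Only OTX2 was further from the promoters in the activin-free list by more than 1 kb.

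Promoters were mostly ZIC2 alone (34 genes in EpiSCs, including the 3 Slit genes, Ntn1, Dcc and Unc5c) or ZIC2 with OTX2 (14 genes, including Efna1, Efna4, Efnb2, Sema3b, Sema3d, Plxna2, Plxnb1, Plxnb2 and Robo1). The 2 TFs need not share a start. In Efnb2 the OTX2 midpoint lay 21150 bp into the gene, at an internal start, and the ZIC2 midpoint at 753 bp. In Sema6b, also among the 14, they lay at 5895 and 451 bp. Peaks of 3 TFs were counted for Sema3a, Sema3c and Sema5a, 5% of the 60 genes and 4.52% of all genes. In Sema3c, a secreted semaphorin with more than 1 annotated start, the ZIC2, OTX2 and POU5F1 midpoints lay 383, 899 and 1529 bp downstream of the outermost start. In the others the 3 TFs did not share a start. Sema3a had its POU3F1 peak 702 bp upstream of the outermost start, whereas its ZIC2 and OTX2 promoter peaks were at internal starts, with midpoints 270768 to 273856 bp into the gene. Sema5a had ZIC2 at the outermost start, at 602 bp, and OTX2 and POU5F1 at an internal one about 172 kb away. In activin-free cells 3 TFs were counted for Efna1, Sema3a and Sema5a, again 5%, against 6.77% of all genes with 3 or more. Efna1, a ligand of the EphA receptors, had ZIC2, OTX2 and POU5F1 peaks with midpoints within 1 kb of its start.

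By the share of peaks in introns, the order of the TFs in EpiSCs was the opposite. In EpiSCs, 866 of 969 POU3F1 peaks of these windows were intronic, 89.4% (87.3 to 91.2%). The intronic share was 86.3% (83 to 89.1%) for POU5F1 and 79.5% (74.9 to 83.5%) for SOX2. It was 60.9% (56.4 to 65.2%) for OTX2 and 50.6% (47.3 to 53.8%) for ZIC2. Over all genes the order was the same, 77.1% for POU3F1, 73% for POU5F1, 68.8% for SOX2, 62.1% for OTX2 and 49.9% for ZIC2. The OTX2 and ZIC2 intervals included these values, and those of POU3F1, POU5F1 and SOX2 lay above them. Introns made up 9.86 Mb of the windows. POU3F1 had 87.9 peaks per Mb of intron (exact Poisson interval 82.1 to 93.9), and 44.9 in the introns of all protein-coding genes. POU5F1 had 43.5 per Mb (39.5 to 47.8), against 28.3. SOX2 had 27.6 per Mb (24.4 to 31.1), against 27. OTX2 had 29.5 per Mb (26.2 to 33.1), against 55, and ZIC2 had 45.8 (41.6 to 50.2), against 53.9. At promoters ZIC2 reached 363 peaks per Mb (283 to 458), against 280 for all genes. For POU3F1, 2 of the 969 peaks were at promoters, 0.206% (0.0566 to 0.749%), against 2.09% in the windows of all genes. By this share ZIC2 was also below all genes, at 7.96% (6.36 to 9.92%) against 17.2%. Per Mb of promoter, the POU3F1 interval of 1.24 to 36.9 included the value of all genes, 18.3. In the flanks downstream of the genes ZIC2 had 137 peaks per Mb (117 to 160), against 55.1 for all genes.

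**Figure D1:**
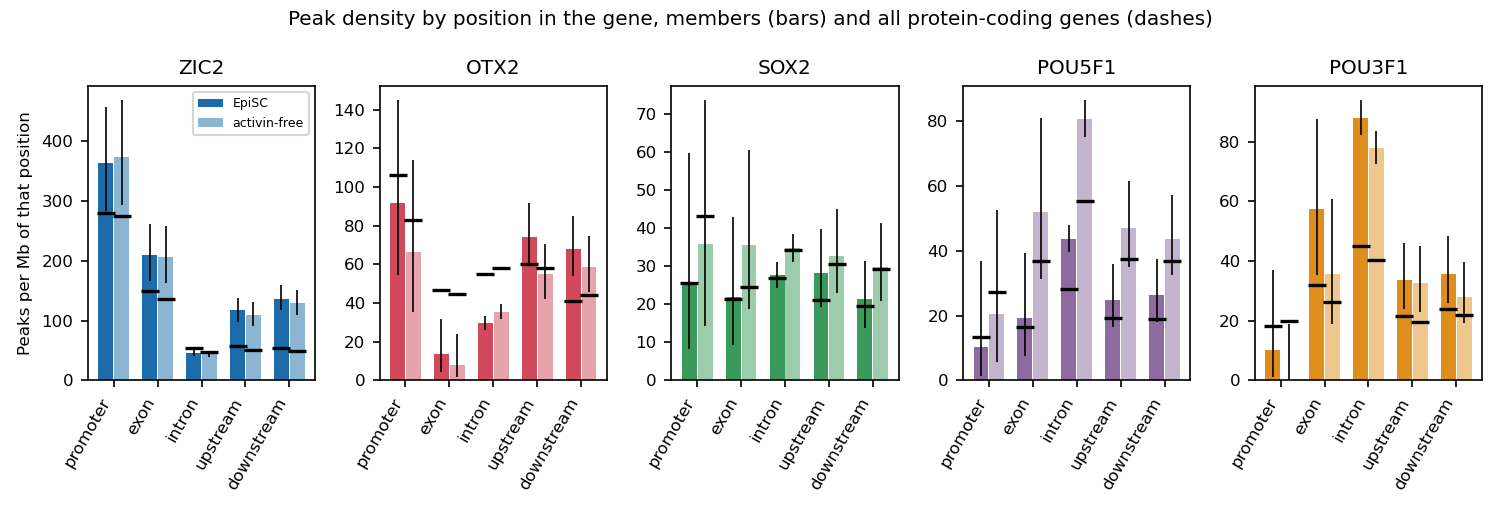
Peaks per Mb of promoter, exon, intron, upstream flank and downstream flank of the 60 genes, for each TF; dark bars are EpiSC, pale bars activin-free, vertical lines are exact 95% Poisson intervals, and black dashes give the density over all protein-coding genes. ZIC2 is densest at promoters (363 per Mb in EpiSCs) and POU3F1 in introns (87.9 per Mb), where its value is above the value of all genes (44.9).

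Taken over the whole windows, POU3F1 had 76.2 peaks per Mb in EpiSCs, 2.06 times the density in the windows of all protein-coding genes (1.93 to 2.2). The ratio was 1.59 (1.45 to 1.73) for POU5F1, 1.08 (0.967 to 1.2) for SOX2, 1.02 (0.956 to 1.09) for ZIC2 and 0.669 (0.61 to 0.731) for OTX2. In activin-free cells the ratios were 2.01, 1.5, 1.03, 1.09 and 0.685 in the same order. These ratios weigh long genes most. Without the 5 longest genes the ZIC2 ratio was 1.35 in EpiSCs and 1.45 in activin-free cells, and the EpiSC ratios of SOX2 and OTX2 were 1.3 and 0.822.

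All 60 windows contained a ZIC2 peak in either culture, against 87.8% of all genes in EpiSCs and 86.7% in activin-free cells. An OTX2 peak was present in 57 windows in EpiSCs (all genes, 86.6%) and 56 in activin-free cells (88%). SOX2 was present in 37 (57%) and 42 (68.6%), and POU5F1 in 40 (57.1%) and 47 (73.2%). POU3F1, the TF with the most peaks in EpiSCs, was found in 26 windows (37%) in EpiSCs and 25 (40%) in activin-free cells. This share of the 60 genes, 43.3% and 41.7%, was near that of all genes.

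**Figure D2:**
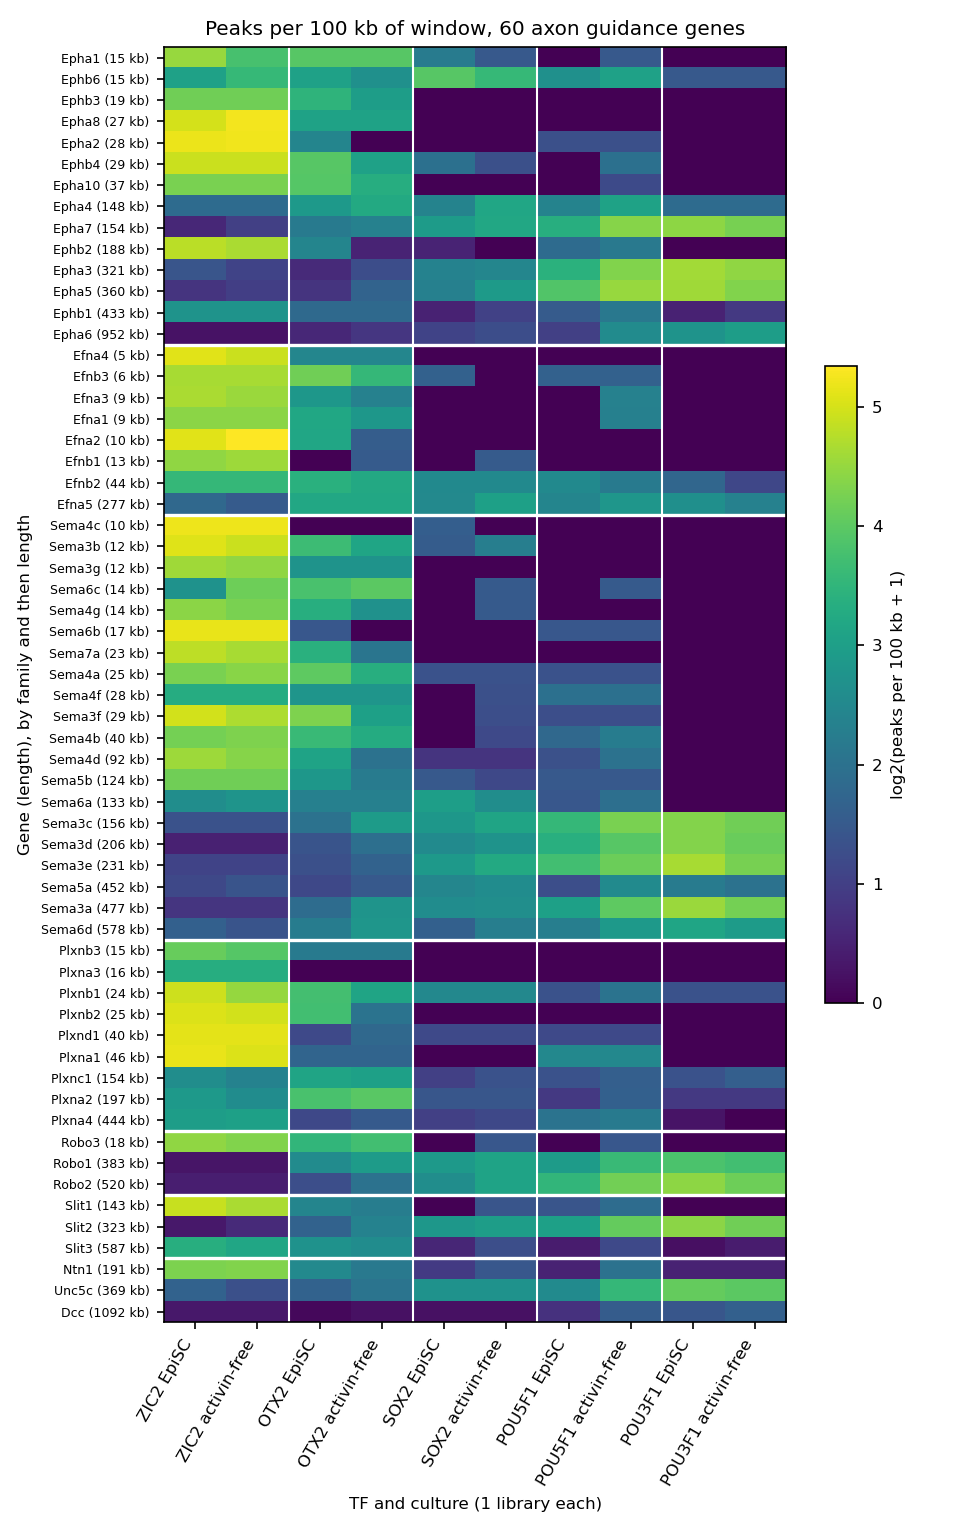
Colour gives log2(peaks per 100 kb of window + 1) for each of the 60 genes (rows, by family and then by length, with white lines between families) in each of the 10 lists (columns, 1 library each). Short genes are bright for ZIC2 and dark for POU3F1 (Sema4c, 36.2 and 0 peaks per 100 kb in EpiSCs), and among the long genes Epha5, Sema3a and Robo2 are bright for POU3F1 whereas Slit3, Plxna4 and Ephb1 are bright for ZIC2.

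Counted over the summed windows, the 32 ligand genes had 8.9 ZIC2 and 7.65 POU3F1 peaks per 100 kb in EpiSCs and the 28 receptor genes 5.65 and 7.55. More ZIC2 than POU3F1 peaks were found in 43 of the 60 windows in EpiSCs, against 71.5% of all genes. The number was 43 in activin-free cells, against 70.4%, so that the share of 71.7% is close to the background in both. More POU3F1 peaks were found in 16 windows, the same 16 genes in either culture, and Epha4 had 5 of each in both. These 16 genes were Epha3, Epha5, Epha6, Epha7, Efna5, Sema3a, Sema3c, Sema3d, Sema3e, Sema5a, Sema6d, Robo1, Robo2, Slit2, Dcc and Unc5c.

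The Slit ligands differed from each other. Slit1 (chr19:41674747-41818155, 143 kb) had 53 ZIC2 and 0 POU3F1 peaks in EpiSCs and 45 and 0 in activin-free cells. Slit3 (chr11:34934726-35522009, 587 kb) had 58 ZIC2 and 1 POU3F1 peaks, then 50 and 2. Slit2 (chr5:48374394-48697521, 323 kb) had 1 ZIC2 and 74 POU3F1 peaks, then 2 and 62. The single EpiSC ZIC2 peak of Slit2 was at its promoter. All 3 proteins are secreted ligands of the Robo receptors, and length alone did not order them, because Slit3 is the longest. The GC content of the windows was 50% for Slit1, 46.4% for Slit3 and 37.6% for Slit2.

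The Robo receptors were divided in the same manner. Robo3 (17.5 kb) had 12 ZIC2, 6 OTX2, 0 SOX2, 0 POU5F1 and 0 POU3F1 peaks in EpiSCs. Robo1 (383 kb) had 1 ZIC2, 21 OTX2, 27 SOX2, 28 POU5F1 and 56 POU3F1 peaks. Robo2 (520 kb) had 2, 8, 29, 59 and 116 in the same order. Robo1 and Robo2 are neighbours on chromosome 16, within 1.75 Mb of each other from end to end. POU3F1 peaks covered 33% of the Robo2 gene body and 0.329% was covered by ZIC2 peaks. The longest stretch of Robo2 without a POU3F1 midpoint was 26.1 kb.

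**Figure D3:**
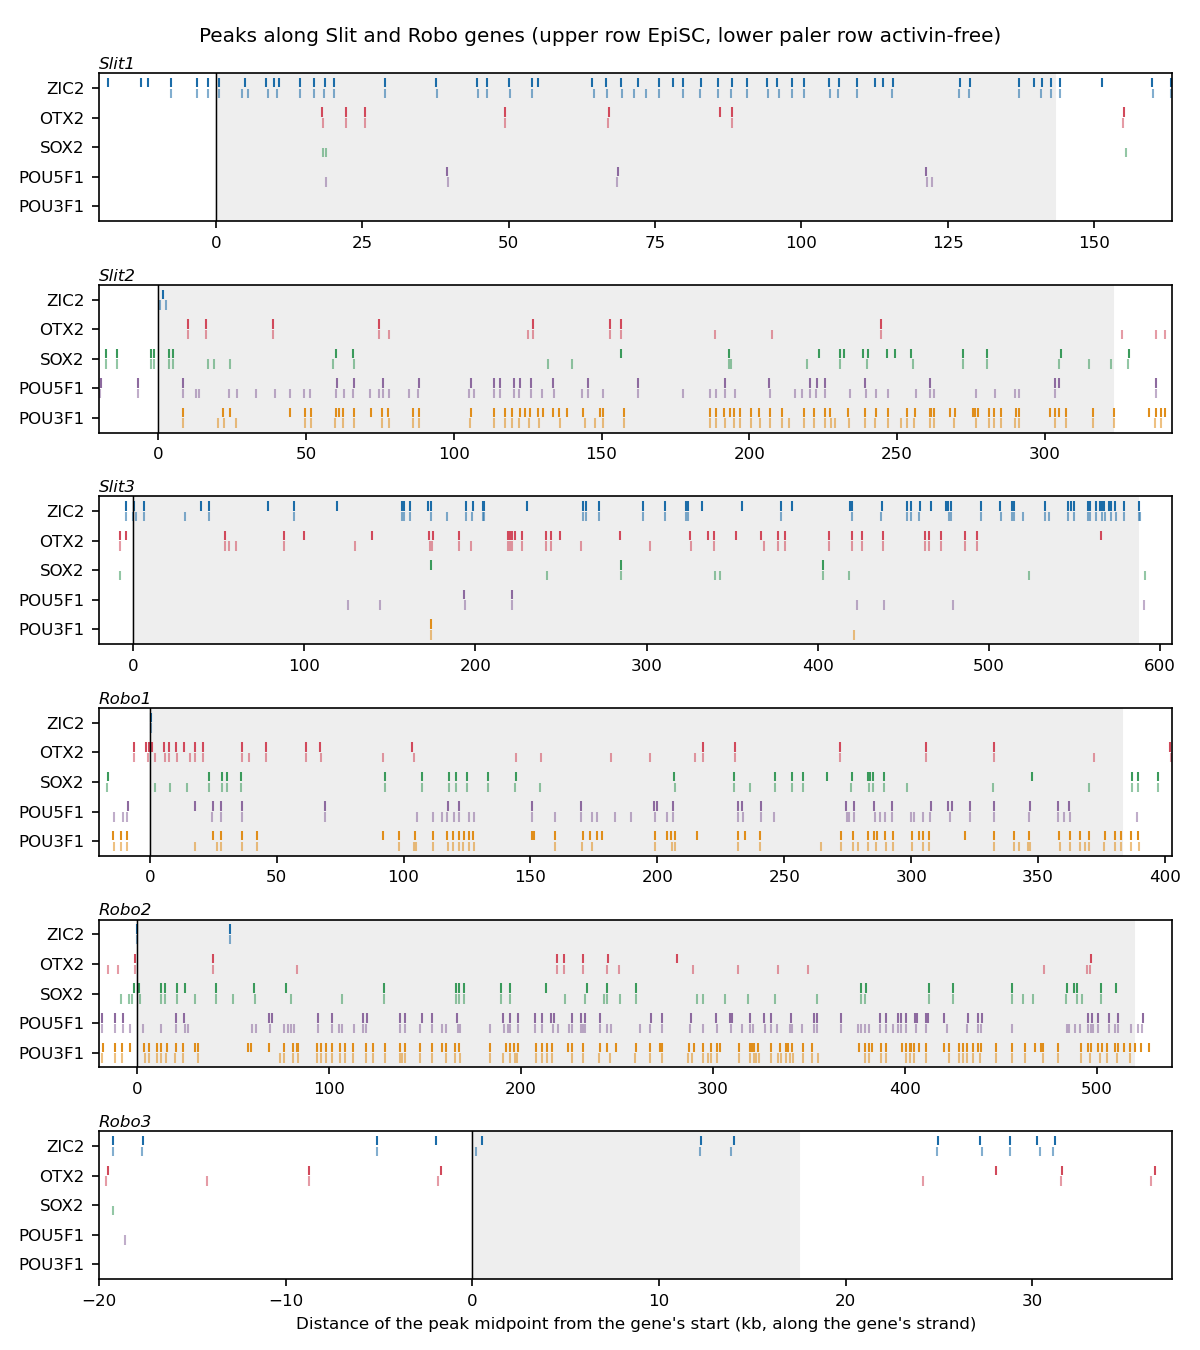
Each tick is the midpoint of a peak along the 3 Slit and 3 Robo genes, by distance in kb from the gene's start on its own strand; the gene body is grey, and for each TF the upper row is EpiSC and the lower, paler row activin-free. Slit1 and Slit3 are lined with ZIC2 ticks (53 and 58 in EpiSCs), and Slit2, Robo1 and Robo2 with POU3F1 ticks (74, 56 and 116) and a single or a pair of ZIC2 ticks in EpiSCs.

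Among the semaphorins, 14 of 20 had more ZIC2 peaks and 6 more POU3F1 peaks. The secreted class 3 was divided between them. Sema3a, best known as a collapsing signal for growth cones, had 4 ZIC2 and 114 POU3F1 peaks in EpiSCs. Sema3e, which acts through Plxnd1, had 3 and 65, with the highest POU3F1 density of the 60 genes in EpiSCs (23.9 per 100 kb) and the highest-scoring SOX2 peak (1210, in activin-free cells). Sema3d had 1 and 48, and Sema3c 3 and 38. Sema3a, Sema3c, Sema3d and Sema3e lie together within 4.85 Mb of chromosome 5 (chr5:12383166-17236086) and are not independent of each other in position. Sema3b, Sema3f and Sema3g had 17, 21 and 12 ZIC2 peaks and no POU3F1 peak. Sema3b and Sema3f are separated by 0.0723 Mb on chromosome 9. All 6 class 4 genes and Sema7a, which encode membrane-bound semaphorins, had ZIC2 peaks in EpiSCs, from 6 at Sema4f to 30 at Sema4d, and 0 POU3F1 peaks. Sema4c, the shortest semaphorin gene with 9.71 kb, had 18 ZIC2 peaks, 36.2 per 100 kb and the highest ZIC2 density in EpiSCs, together with 1 SOX2 peak and no OTX2, POU5F1 or POU3F1 peak. Sema6d, the longest with 578 kb, had 13 ZIC2 and 48 POU3F1 peaks. Sema5a had 6 and 18, with 22 SOX2 peaks, more than of either.

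Among the Eph receptors, the genes with more POU3F1 peaks were all of the EphA subfamily. Epha3, Epha5, Epha6 and Epha7 had 84, 91, 57 and 40 POU3F1 peaks and 6, 3, 2 and 1 ZIC2 peaks in EpiSCs. Epha1, Epha2, Epha8 and Epha10 had 12, 24, 21 and 14 ZIC2 peaks and no POU3F1 peak. Every EphB gene had more ZIC2 than POU3F1 peaks. Ephb2 had 61 ZIC2 peaks and 0 POU3F1 peaks over 188 kb, the highest ZIC2 count of the 60 genes. Ephb1 had 27 and 2 over 433 kb, and Ephb6 had 4 and 1. Ephb6, which encodes a receptor without kinase activity, had the highest SOX2 density of the 60 genes in EpiSCs with 14.5 peaks per 100 kb (8 peaks), and again in activin-free cells with 10.9 (6 peaks). Epha5 had 22.8 POU3F1 and 13.8 POU5F1 peaks per 100 kb, and POU3F1 peaks covered 49.8% of its gene body. Epha6 (952 kb) had 5.75 POU3F1 peaks per 100 kb. Epha3 had the highest POU3F1 density in the activin-free list, with 20.8 peaks per 100 kb. It also had the highest POU3F1 score listed there for the 60 genes, with 3171. In these windows 22 activin-free POU3F1 peaks scored 3100 or more, several at exactly 3100, so the order among them is not resolved.

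The ephrin genes other than Efna5 were at most 43.8 kb long and had more ZIC2 than POU3F1 peaks. Efna4 (4.64 kb) had 15 ZIC2 and 2 OTX2 peaks and none of the other TFs in EpiSCs, and Efna2 had 17 and 4. Efna2 had the highest ZIC2 density in the activin-free list, with 39.6 peaks per 100 kb. Efna5 (277 kb) had 8 ZIC2, 26 OTX2, 15 SOX2, 14 POU5F1 and 17 POU3F1 peaks, the only ephrin with more POU3F1 than ZIC2. Efnb2 had 9 ZIC2, 8 OTX2, 4 SOX2, 4 POU5F1 and 2 POU3F1 peaks.

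All 9 plexin genes had more ZIC2 than POU3F1 peaks, and together they had 7 POU3F1 peaks in each culture against 169 and 157 ZIC2 peaks. Plxna4, at 444 kb as long as several POU3F1-rich genes, had 33 ZIC2, 6 OTX2, 5 SOX2, 15 POU5F1 and 1 POU3F1 peaks in EpiSCs. Plxnb3 (15.4 kb), the shortest plexin gene, had 9 ZIC2 and 2 OTX2 peaks and none of the others. Plxnd1 had 27 ZIC2 peaks and 1 each of OTX2, SOX2 and POU5F1. Plxna2 had more OTX2 (31) than ZIC2 (15) peaks, and so did Plxnc1, with 15 and 10.

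Netrin 1 and its receptors fell on opposite sides. Ntn1 (191 kb) had 43 ZIC2 and 1 POU3F1 peaks in EpiSCs and 44 and 1 in activin-free cells. Unc5c (369 kb) had 9 and 65, then 6 and 61. The highest ZIC2 score listed for the 60 genes in activin-free cells was 3233, at Ntn1. However, 38 activin-free ZIC2 peaks of these windows scored 3100 or more, several at exactly 3100, so the order among them is not resolved. Dcc, the longest gene of the set with 1092 kb, had 3 ZIC2 and 19 POU3F1 peaks, then 3 and 24. Its density was low for all TFs in EpiSCs, with 1.68 POU3F1, 0.707 POU5F1, 0.265 ZIC2, 0.177 SOX2 and 0.0883 OTX2 peaks per 100 kb, so that POU3F1 density did not follow length at the long end.

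The windows of short genes had ZIC2 peaks without exception. In genes under 25 kb most of the window is flank, where a peak can lie nearer to another gene. All 20 genes under 25 kb had more ZIC2 than POU3F1 peaks, against 72.7% of all protein-coding genes of that length, and so had all 13 genes of 25 to 100 kb, against 75.5%. Of the 13 genes of 100 to 300 kb, 7 had more ZIC2 and 5 more POU3F1 peaks, against 60.3% and 36.3%. Of the 14 genes of 300 kb or more, 3 had more ZIC2 (Slit3, Plxna4 and Ephb1) and 11 more POU3F1, against 35.2% and 63.3%. The counts for the 60 genes were identical in the activin-free lists. Across the 60 genes, the ZIC2 share of ZIC2 and POU3F1 peaks had a Spearman's rho of -0.765 with gene length in EpiSCs and -0.746 in activin-free cells. With the GC content of the window rho was 0.855 and 0.844. Length and GC content themselves had a rho of -0.702, and the genes share the same libraries, so these values are descriptive and the contributions of length and GC content cannot be told apart.

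Genes with a window GC content under 40% were all on the POU3F1 side, 13 of 13 in either culture, against 79.7% of all genes in this class in EpiSCs. Of the 9 genes at 40 to 45%, 5 had more ZIC2 and 3 more POU3F1 peaks, against 65.9% and 19.7%. All 38 genes at 45% or more had more ZIC2, 21 at 45 to 50% and 17 above, against 99.3% and 100% of all genes. POU3F1 density in the class under 40% was 14.3 peaks per 100 kb in EpiSCs, against 10.1 for all genes, which in this class have a median length of 9.16 kb, compared with 360 kb for the 13 axon guidance genes. In the class of 50% or more the 17 genes had 30.5 ZIC2 and 0 POU3F1 peaks per 100 kb, against 27.6 and 0.0597.

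**Figure D4:**
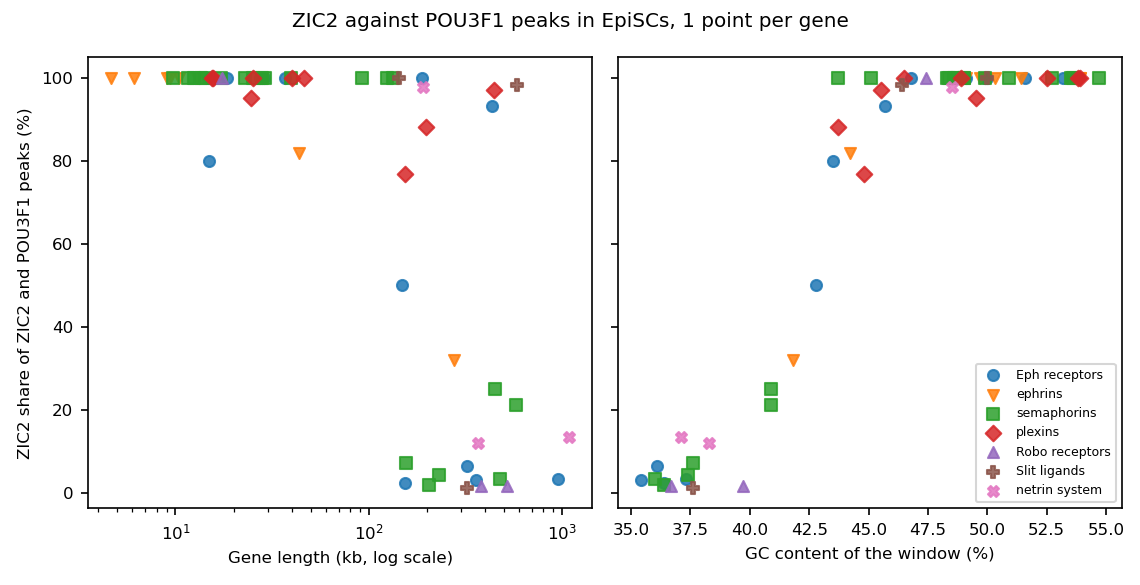
Each point is 1 of the 60 genes, by family; the vertical axis gives ZIC2 peaks as a percentage of ZIC2 and POU3F1 peaks in the EpiSC lists, against gene length (left, log scale) and GC content of the window (right). Genes under 100 kb lie at 80% or more, longer genes spread from 1.33% (Slit2) to 100%, and all genes with a GC content of 45% or more lie near or at 100%.

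Of the 38 other genes of the pathway, 37 had a gene model under the symbol used, among them the neuropilins Nrp1 and Nrp2, the Srgap and Dpysl families and the cell adhesion genes L1cam, Nrcam and Chl1. A ZIC2 promoter peak was present in 35 of the 37 in either culture and an OTX2 one in 13 in EpiSCs. More ZIC2 than POU3F1 peaks were found in 27 and more POU3F1 peaks in 10. Their summed windows had 3.09 POU3F1 peaks per 100 kb in EpiSCs, compared with 7.59 for the 60 ligands and receptors and 3.12 for all protein-coding genes. The median per gene was 0 in each of these sets. Of the 969 peaks of the 60 genes, 746 lay in the 14 genes of 300 kb or more. In that class the 60 genes had 9.5 peaks per 100 kb, against 6.89 for all genes. Under 25 kb they had 0.186, against 1.8.

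In EpiSCs 71.4% of POU5F1 peaks in these windows (67.3 to 75.2%) shared at least 1 bp with a POU3F1 peak, compared with 51.7% of all POU5F1 peaks. Of the POU3F1 peaks, 34.3% (31.3 to 37.3%) overlapped POU5F1, against 28% of all POU3F1 peaks. Of the SOX2 peaks, 38.9% (33.9 to 44.2%) overlapped POU3F1, against 17.7% of all SOX2 peaks, and 17.8% (14.1 to 22.2%) overlapped POU5F1, against 8%. ZIC2 and POU3F1 scarcely overlapped, at 1.57% (0.937 to 2.62%) of ZIC2 and 1.44% (0.863 to 2.41%) of POU3F1 peaks. These shares were near those over the whole lists, 1.16% and 1.27%. Of the OTX2 peaks, 27.2% (23.4 to 31.4%) overlapped ZIC2, against 17.8% of all OTX2 peaks. As a share of ZIC2 peaks this was 14.7% (12.5 to 17.2%), against 14.8%. In activin-free cells the overlap of OTX2 with ZIC2 was 15.3% (12.4 to 18.7%) of OTX2 peaks, and that of OTX2 with POU3F1 was 19.1% (15.9 to 22.8%), compared with 11.5% (8.95 to 14.7%) in EpiSCs. Over the whole lists OTX2 moved likewise, from 17.8% to 12% with ZIC2 and from 7.06% to 11.5% with POU3F1. Peaks of POU3F1 and ZIC2 were also wider here than in the whole lists, as 21.1% of POU3F1 peaks and 16.1% of ZIC2 peaks exceeded 2000 bp, against 13.2% and 7.92%. POU3F1 peaks were also denser here, at 2.06 times the EpiSC density in the windows of all protein-coding genes. The parts of peak width and peak density in these overlaps were not tested.

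ZIC2 and POU3F1 binding of the axon guidance genes was largely shared by the cultures. Of the EpiSC ZIC2 peaks, 84.5% (82 to 86.8%) overlapped a ZIC2 peak of activin-free cells, and 93.9% (92.1 to 95.3%) of the latter overlapped the former, against 78.9% and 91.2% over the whole lists. For POU3F1 the shares were 85.6% (83.2 to 87.6%) and 90.4% (88.2 to 92.2%), against 82.6% and 86.8%. All 73 activin-free ZIC2 promoter peaks were found in EpiSCs, and 67 of the 71 EpiSC ones in activin-free cells. The same shares were not computed for the promoters of all genes. For SOX2 the shares were 75.4% (70.6 to 79.7%) of EpiSC and 59% (54.3 to 63.5%) of activin-free peaks, against 77.6% and 55.9%. Peaks found in 1 culture scored lower, with a median of 68.1 against 306 for shared EpiSC ZIC2 peaks. In activin-free cells ZIC2 peaks were fewer in 23 genes, more numerous in 15 and equal in number in 22, against 44.2% fewer and 16.3% more over all genes, with the largest changes at Slit1 (53 to 45) and Slit3 (58 to 50). When every list was limited to its 50000 highest-scoring peaks, an alternative chosen after seeing the data, ZIC2 peaks were fewer in 15 and more numerous in 16 genes. POU3F1 peaks were fewer in 16, more in 5 and equal in 39 genes, most of which had none, against 16.9% fewer and 12.5% more over all genes, with the largest changes at Sema3a (114 to 91) and Robo2 (116 to 94).

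POU5F1 peaks were more numerous in the activin-free list in 37 genes and fewer in 1, Efnb2 (4 to 3), against 54.6% and 1.35% of all genes. The windows held 497 in EpiSCs and 921 in activin-free cells, 1.85 times as many, while the whole POU5F1 list was 2.03 times as long. In lists limited to 50000 peaks as above, the summed count was 403 in both cultures, with 10 genes having more and 16 fewer in activin-free cells. Of the EpiSC POU5F1 peaks, 98.8% (97.4 to 99.4%) were present in activin-free cells, against 98.3% over the whole list, and 49.4% (46.2 to 52.6%) of the activin-free peaks in EpiSCs. The largest differences were at Sema3a, from 37 to 79, and Epha6, from 10 to 49. Robo2 went from 59 to 98, Epha3 from 35 to 69 and Slit2 from 26 to 58. These 5 genes also had 57 to 116 POU3F1 peaks in EpiSCs. Of the 466 POU5F1 peaks found only in activin-free cells, 57.3% (52.8 to 61.7%) overlapped a POU3F1 peak of the same culture, and of the 455 shared ones 69.9% (65.5 to 73.9%). This split was not computed for the whole list. Over the whole genome, 47.1% of activin-free POU5F1 peaks overlapped EpiSC POU5F1 peaks and 47.6% overlapped EpiSC POU3F1 peaks; in these windows the shares were 49.4% and 65.8%. SOX2 peaks were more numerous in 29 genes and fewer in 8, against 42.3% and 12.1% of all genes, with the largest changes at Robo2 (29 to 42) and Sema6d (13 to 24). The number in the windows was 1.27 times that in EpiSCs, compared with 1.38 times for the lists. In lists limited to 50000 peaks the direction turned, with a summed count of 281 in EpiSCs and 237 in activin-free cells, 14 genes having more and 22 fewer.

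OTX2 peak numbers differed between the cultures in opposite directions on long and short genes. Its number of peaks in the windows was nearly equal, 478 and 497, but 22 genes had more in activin-free cells and 26 fewer, against 29.6% and 42.7% of all genes. Sema3a went from 14 to 30 peaks, Sema6d from 23 to 37, Robo2 from 8 to 17 and Slit2 from 8 to 15. Ephb2 had 10 in EpiSCs and 1 in activin-free cells, Sema3f 13 and 5, Sema4d 10 and 4, and Epha2 3 and 0. Of the 14 genes of 300 kb or more, 12 had more OTX2 peaks in activin-free cells and 1 fewer, and their summed count was 153 in EpiSCs and 226 in activin-free cells, a ratio of 1.48. In the 20 genes under 25 kb the sum went from 83 to 63, with 3 genes having more and 11 fewer, and in the 13 genes of 25 to 100 kb it went from 94 to 56, with 1 gene having more and 9 fewer. With all peaks used, all protein-coding genes had ratios of 1.31 in the longest, 0.847 in the shortest and 0.929 in the 25 to 100 kb class. These are the same directions as in the 60 genes. In the 25 to 100 kb class 32.6% of all genes had more and 47.6% fewer. In lists limited to 50000 peaks, the ratios for the 60 genes in the longest and the shortest class were 1.33 and 0.646. With peaks scoring at least 100, also chosen after seeing the data, they were 1.72 and 0.75. In this setting the 25 to 100 kb class had a ratio of 0.822 for the 60 genes and 1.08 for all genes, so the directions differed there.

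**Figure D5:**
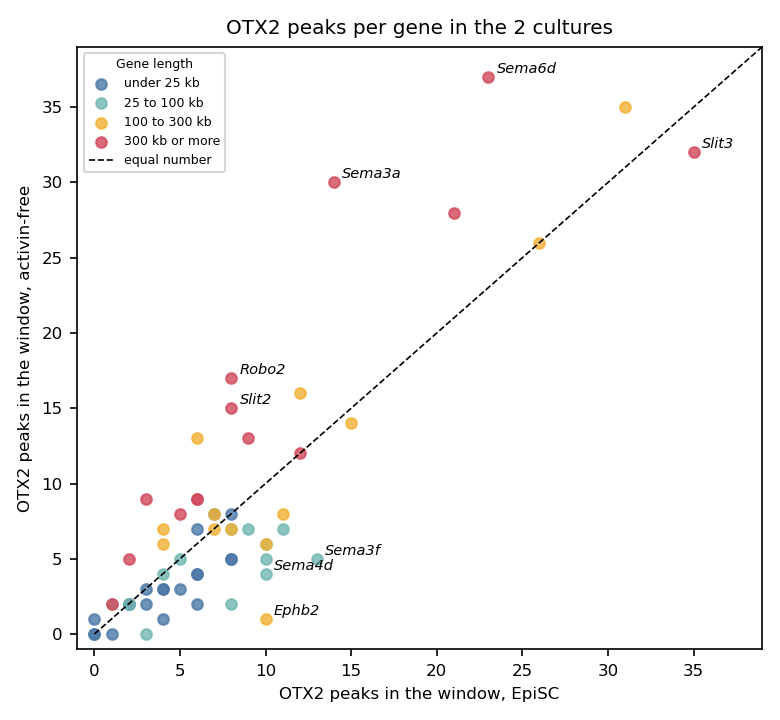
Each point is 1 of the 60 genes, with the number of OTX2 peaks in its window in EpiSCs (horizontal) and activin-free cells (vertical), coloured by gene length; the dashed line marks equal numbers. Genes of 300 kb or more lie mostly above the line (12 of 14) and genes under 100 kb mostly on or below it.

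OTX2 peaks found in 1 culture also differed in their overlap with POU3F1. Of the 161 OTX2 peaks found only in activin-free cells, 29.2% (22.7 to 36.6%) overlapped a POU3F1 peak, and of the 336 shared ones 14.3% (10.9 to 18.4%). Of the 128 found only in EpiSCs, 5.47% (2.67 to 10.9%) overlapped POU3F1. This split was not computed for the whole lists, in which 7.06% of EpiSC and 11.5% of activin-free OTX2 peaks overlapped POU3F1. Whether the split is particular to these genes is therefore not known. Across the genes, OTX2 density had a rho of 0.386 with the GC content of the window in EpiSCs and 0.00117 in activin-free cells. Among short genes, Sema3f had 18.8 peaks per 100 kb in EpiSCs, the highest of the 60 genes, and Sema6c had 14.9 in activin-free cells.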

How the data were processed

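Alignment (Bowtie2, genome mm9) and peak calling (MACS, input DNA as reference) were done by the authors. The deposited lists give the position of each peak and a score, -10 log10 of its p-value, of 50 or more; they hold no reads, so depth is unknown, and floors and intervals cover counting error only. Positions are counted from 1. Peaks on other sequences than chromosomes 1 to 19, X and Y (65 to 247 in a list) were not used.

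Gene models were the protein-coding genes of GENCODE vM1 (for repeated symbols, the longest). Positions were assigned in the order promoter, exon, intron, upstream, downstream. Sequences were read from the mm9 genome; none of chromosome 18 is printed, but its genes and peaks are in all counts. Windows of all protein-coding genes, counted alike apart from the position classes, gave the background. Each list was 1 library, so no test between groups was made. Counting steps were tested on simulated lists. Genes named were the longest and shortest of each family, those with the highest density, ZIC2 share or score, those with the largest change between cultures, promoters with 3 or more TFs, and others chosen after their values were seen. The members, gene lists and comparisons were chosen with earlier results of these data known. Alternatives varied the score minimum, promoter distance, flank, overlap, list size, peak width and the longest genes. Calculations used Python 3.11.15, pandas 2.3.3, numpy 2.4.6, scipy 1.17.1, pysam 0.24.0, samtools 1.23.1 and matplotlib 3.10.9.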

Additional observations from a re-analysis of the deposited data

How the results depend on the processing

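Of 184 values recomputed for 54 results, 110 stayed within 1.5 times (counts of genes), within the counting interval (shares and ratios) or within 0.1 (rho), and 74 moved further. A change of direction was defined for rho alone, and no rho changed sign. Numbers of genes with more or fewer peaks in activin-free cells are not among the 54 results. With 50000 peaks a list, an alternative chosen after seeing the data, SOX2 turned to 14 genes with more and 22 with fewer, POU5F1 to 10 and 16, and ZIC2 to 16 and 15. The number of genes with more ZIC2 than POU3F1 peaks and the rho of ZIC2 share with gene length stayed within these limits under every alternative tried for them. No paired analysis was possible because each TF had 1 library in each culture. Promoter counts of TFs other than ZIC2 are small and depend on how far a promoter reaches. With promoters of 500 bp the number of genes with a promoter peak was 8 for EpiSC OTX2, 2 for EpiSC SOX2, 0 for EpiSC POU5F1, 0 for EpiSC POU3F1, 5 for activin-free OTX2 and 1 for activin-free POU5F1. With promoters of 500 bp the percentage of peaks at a promoter was 5.49 for EpiSC ZIC2, 1.67 for EpiSC OTX2, 0.585 for EpiSC SOX2, 0 for EpiSC POU5F1, 0 for EpiSC POU3F1, 5.86 for activin-free ZIC2, 1.01 for activin-free OTX2 and 0.109 for activin-free POU5F1. With promoters of 2 kb the number of genes with a promoter peak was 10 for EpiSC SOX2, 8 for EpiSC POU5F1, 6 for EpiSC POU3F1, 11 for activin-free SOX2, 10 for activin-free POU5F1 and 5 for activin-free POU3F1. With promoters of 2 kb the percentage of peaks at a promoter was 11.7 for EpiSC ZIC2, 6.07 for EpiSC OTX2, 3.51 for EpiSC SOX2, 1.61 for EpiSC POU5F1, 0.929 for EpiSC POU3F1, 11.8 for activin-free ZIC2 and 0.94 for activin-free POU3F1. With scores of at least 100 the number of genes with a promoter peak was 1 for EpiSC POU5F1, 0 for EpiSC POU3F1, 3 for activin-free SOX2 and 2 for activin-free POU5F1. With scores of at least 100 the density ratio was 2.22 for EpiSC POU3F1 and 2.16 for activin-free POU3F1. With scores of at least 100 the percentage of peaks at a promoter was 0 for EpiSC POU3F1 and 10.7 for activin-free ZIC2. With scores of at least 100 in both lists the shared percentage was 87 for EpiSC ZIC2, 100 for EpiSC POU5F1, 63 for activin-free OTX2 and 43.7 for activin-free POU5F1. With lists limited to their 50000 highest-scoring peaks the number of genes with a promoter peak was 1 for EpiSC POU5F1, 0 for EpiSC POU3F1, 6 for activin-free OTX2, 3 for activin-free SOX2 and 2 for activin-free POU5F1. With a TSS covered by the peak, chosen after seeing the data, the number of genes with a promoter peak was 6 for EpiSC OTX2, 1 for EpiSC SOX2, 0 for EpiSC POU5F1, 0 for EpiSC POU3F1, 6 for activin-free OTX2, 3 for activin-free SOX2 and 1 for activin-free POU5F1. With the gene body alone the number of genes with a peak in the window was 36 for activin-free OTX2. Without the 5 longest genes the density ratio was 1.35 for EpiSC ZIC2, 0.822 for EpiSC OTX2, 1.3 for EpiSC SOX2, 1.82 for EpiSC POU5F1, 2.24 for EpiSC POU3F1, 1.45 for activin-free ZIC2, 0.8 for activin-free OTX2, 1.18 for activin-free SOX2 and 1.66 for activin-free POU5F1. With summed peak width the density ratio was 1.18 for EpiSC ZIC2, 2.47 for EpiSC POU3F1, 1.24 for activin-free ZIC2, 1.76 for activin-free POU5F1 and 2.44 for activin-free POU3F1. With a reciprocal overlap of 50% the shared percentage was 77.9 for EpiSC ZIC2, 65.1 for EpiSC OTX2, 77.5 for EpiSC POU5F1, 71.2 for EpiSC POU3F1, 81.6 for activin-free ZIC2, 62.6 for activin-free OTX2, 41.8 for activin-free POU5F1 and 81.1 for activin-free POU3F1. The reach of the promoter sets these counts by construction; the cause of the other changes was not tested. Without replicate libraries or a known read depth, differences between cultures have no error, and a gene without a peak may only lack one at this depth.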
